A study of Drosophila melanogaster with 36 samples.

Results

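The genes described here are 9 genes of the fly's sex pathway, taken by their symbols from the 17610 genes of the deposited count tables: the yolk protein genes Yp1, Yp2 and Yp3, the dosage compensation genes lncRNA:roX1, lncRNA:roX2 and msl-2, and the sex determination genes Sxl, tra and dsx. All 9 had rows in both tables and all 9 passed the filter on low counts. RNA came from the larval fat body of Drosophila melanogaster in the third instar; this organ stores fat and secretes most blood proteins. It was taken from per0 larvae, which lack a working period clock gene, and from w1118 larvae, a laboratory strain carrying a mutation of the eye colour gene white. Both were kept in constant darkness and sampled every 4 h at 9 circadian times (CT, hours of the subjective day), the first CT0 and the last CT32. Each genotype had 2 libraries at each time, which makes 18 per0 and 18 w1118 libraries. The labels give larval stage but no age in hours, and whether time elapsed and larval age changed together cannot be told apart.

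In Drosophila, the protein Sxl is made in females, where it directs splicing of tra RNA and blocks translation of msl-2 RNA. Tra protein in turn directs the female splice form of dsx, whose female and male proteins activate and repress the yolk protein genes. In males, MSL2 protein and the roX RNAs form the complex that raises transcription from the X chromosome. Yolk proteins are made above all by the adult female fat body and the ovary, so a larval fat body is a tissue of low yolk protein expression. Each library was made from 5 larvae of both sexes mixed, per the labels' protocols, and the share of each sex in a pool is not given. In such bulk samples, fewer cells or larvae of a kind and less RNA per cell cannot be told apart. Counts per gene do not separate the male and female splice forms of Sxl, tra, dsx and msl-2.

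Total counts ran from 16513757 to 28423768 per library, and 3 counts corresponded to 0.0995 to 0.211 CPM, counts per library scaled to a common size. Fat body markers, the larval serum proteins, Fbp1, Fbp2 and apolpp, summed to 19236 to 471609 CPM in per0 and 84847 to 506527 CPM in w1118. The 23 testis markers summed to 2.18 to 562 CPM in per0, median 20.3, and 4.98 to 1367 CPM in w1118, median 227, with 4 to 22 and 4 to 23 of them above 3 counts. Germline and ovary markers, which include vas and bam, summed to 1.92 to 42.7 CPM in per0 and 7.79 to 68.1 CPM in w1118, midgut markers to 0.169 to 7340 and 0.358 to 4617 CPM, and salivary gland markers to 0 to 13398 and 0 to 2527 CPM. The library per0 CT28 B was intermediate between the genotypes, for a reason that was not tested: over 6 genes that separate the genotypes in the other libraries it lay a median share of 0.453 of the way from the per0 to the w1118 level, against -0.00359 to 0.00632 in the other 17 per0 libraries. This library alone set the per0 maxima of the testis, germline and ovary, and salivary gland sums. The next highest per0 sums were 180 CPM (CT12 A), 31.0 CPM (CT0 A) and 10.5 CPM (CT28 A). It is included unless stated otherwise, per0 CT28 B being meant by the intermediate library.

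Per kilobase of annotated exon, Yp3 was the most abundant of the 9 genes in both genotypes, with a median of 25.1 CPM per kb in per0 and 21.1 in w1118. Next came roX1, with medians of 19.0 CPM per kb in per0 and 18.4 in w1118. In per0 roX2 (5.04), Sxl (4.03), msl-2 (3.49), tra (2.15) and dsx (1.23) followed, and in w1118 msl-2 (4.65), Sxl (3.22), roX2 (2.89), tra (2.46) and dsx (1.23), all as median CPM per kb. Yp2 and Yp1 were last, with medians of 0.0947 and 0.0663 CPM per kb in per0 and 0.273 and 0.230 in w1118. Across libraries the ranges of all 8 pairs of neighbours in each order overlapped. Neighbours were not compared within each library, so whether they kept their order there was not tested.

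The RNAs of dosage compensation varied widely between libraries. roX1, a noncoding RNA of the male X-chromosome complex, ran from 0.468 to 341 CPM in per0, median 104, and from 7.29 to 231 CPM in w1118, median 100. In per0, 5 values stood apart: roX1 measured 1.19 and 1.71 CPM in CT20 A and B, 0.953 in CT24 B, 0.468 in CT28 A and 2.15 in CT32 A, and 63.1 to 341 CPM in the other 13 per0 libraries. The widest gap between neighbouring per0 libraries was 4.58 on the log2(CPM + 0.5) scale. In w1118 the 5 lowest roX1 values were 7.29 and 8.37 CPM in CT16 B and A, 11.2 in CT0 A, 21.3 in CT4 A and 31.7 in CT28 A, and the next was 71.4 CPM. No w1118 library was as low in roX1 as the 5 lowest per0 libraries.

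The second roX RNA, roX2, which can stand in for roX1 in the male complex, was low in the same libraries. It measured 0 to 0.263 CPM in the 5 per0 libraries lowest in roX1 and 5.10 to 22.8 CPM in the other 13. In w1118 it measured 0 to 0.279 CPM in the 5 libraries lowest in roX1 and 1.93 to 13.9 CPM in the other 13. So the same libraries were low in both RNAs. The roX1 exons share 392 bp with ec, a gene on the opposite strand in the Ensembl annotation, and the kit keeps no strand. ec itself measured 0 to 4.44 CPM in per0 and 0.478 to 4.54 CPM in w1118, and its part in the roX1 counts was not tested.

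msl-2 encodes the subunit that limits the male complex to males, though its RNA is present in both sexes. Its level ran from 3.92 to 33.02 CPM in per0, median 13.4, and from 5.89 to 27.5 CPM in w1118, median 17.9. The 5 per0 libraries lowest in roX1 held 3.92 to 9.80 CPM of msl-2, and the 5 w1118 libraries lowest in roX1 held 5.89 to 8.33 CPM. Sxl, the female switch gene, had its lowest, median and highest values at 12.2, 37.1 and 52.8 CPM in per0 and at 10.8, 29.6 and 53.7 CPM in w1118. In the same 5 libraries of each genotype Sxl measured 43.4 to 52.8 CPM in per0 and 36.5 to 53.7 CPM in w1118, the upper part of its range.

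**Figure D1:**
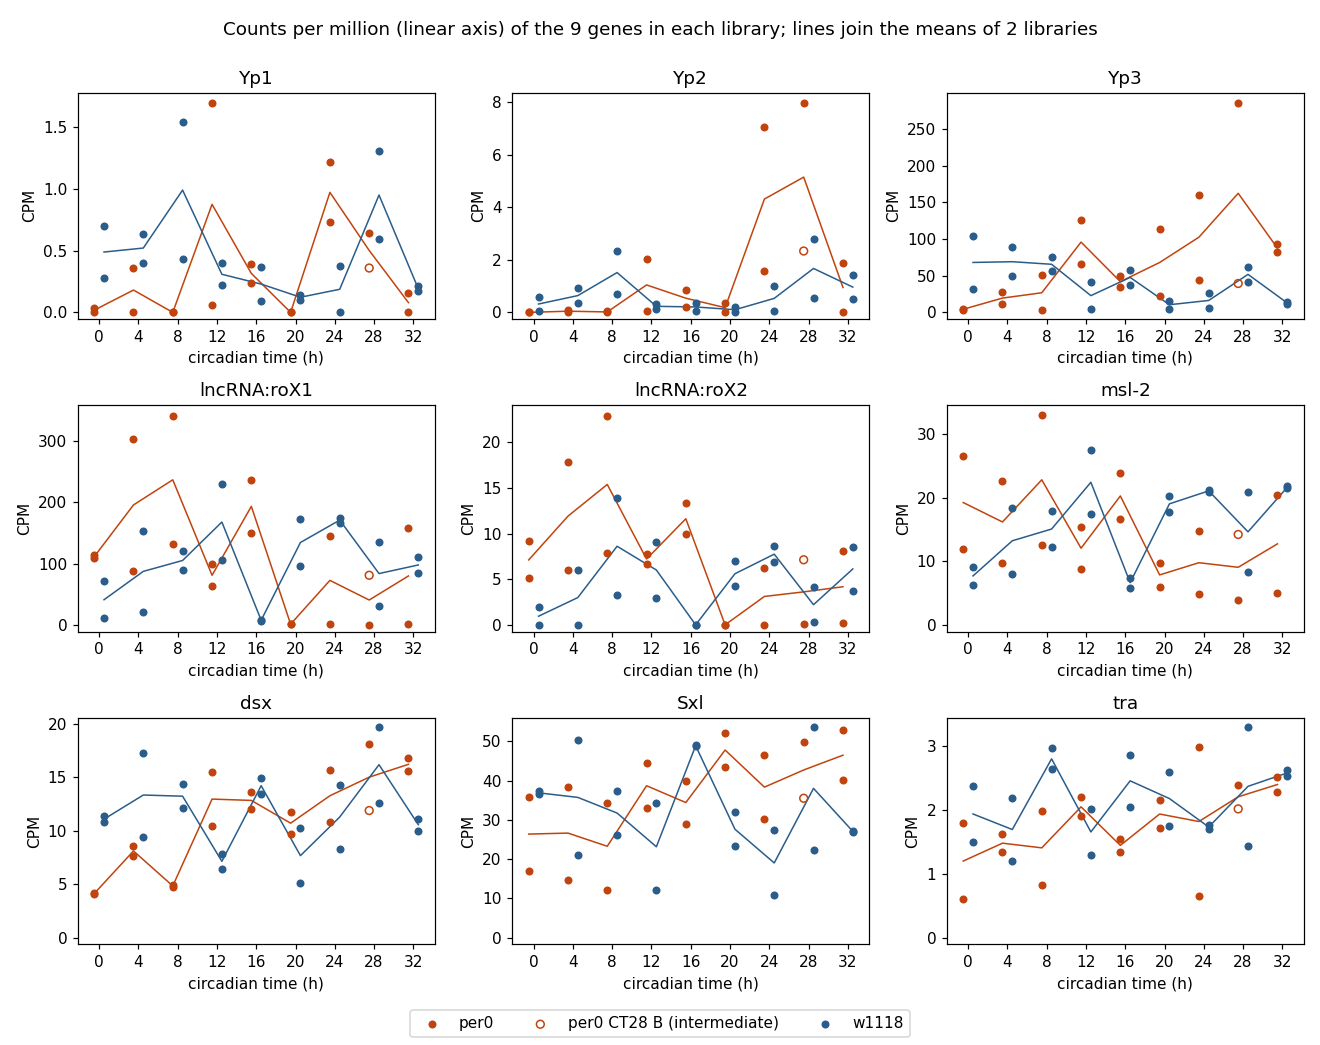
Level of each of the 9 genes in every library, in CPM on a linear axis, against circadian time in hours, for per0 (red) and w1118 (blue); lines join the means of 2 libraries and the open circle is the intermediate library per0 CT28 B. roX1 and roX2 were low in both per0 CT20 libraries and both w1118 CT16 libraries, and dsx in per0 lay at 4.05 to 8.58 CPM from CT0 to CT8 and at 10.9 to 18.1 CPM from CT24 to CT32.

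These levels were related across libraries within each genotype, on the log2(CPM + 0.5) scale, with 78 relations adjusted together by the Benjamini-Hochberg method and p-values from a permutation test with 100000 resamples. Libraries were shuffled without regard to their times, so these p-values do not separate a shared course over time from other covariation. msl-2 and Sxl ran opposite ways in both genotypes. In per0, Pearson's r was -0.80 and Spearman's rho -0.86 (n = 18 libraries, permutation test, adjusted p = 0.00091 and 0.00078), and r stayed at -0.81 without the 2 libraries farthest from the median. In w1118, r and rho were both -0.80 (n = 18, permutation test, adjusted p = 0.00091 and 0.00134), and r was -0.82 without the 2 farthest.

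roX1 and msl-2 ran the same way. As roX1 in per0 and roX2 in both genotypes formed 2 separate clusters of libraries, their relations were computed only within the 13 upper libraries. Over those of per0, roX1 and msl-2 gave r = 0.81 and rho = 0.79 (permutation test, adjusted p = 0.00518 and 0.00936). In w1118, the widest roX1 gap also lay between the 5 lowest and the other 13 libraries, but at 1.16 log2 it did not pass. The same relation there gave r = 0.91 and rho = 0.80 over 18 libraries, the 5 lowest included (permutation test, adjusted p = 0.00039 and 0.00156). roX1 and roX2 gave r = 0.87 over the 13 upper per0 libraries (rho = 0.79, permutation test, adjusted p = 0.00182 and 0.00936). Over the 13 upper w1118 libraries they gave r = 0.40, which did not pass (rho = 0.36, adjusted p = 0.251 and 0.315).

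roX1 and Sxl gave r = -0.75 and rho = -0.82 in w1118 (n = 18, permutation test, adjusted p = 0.00241 and 0.00125). In the 13 upper per0 libraries they gave r = -0.72 and rho = -0.56 (permutation test, adjusted p = 0.0178 and 0.0988), but r was only -0.26 without the 2 libraries farthest from the median, so that relation rests on them. tra, which encodes the splicing factor downstream of Sxl, followed Sxl in per0 with r = 0.75 and rho = 0.82 (n = 18, permutation test, adjusted p = 0.00486 and 0.00125). In w1118 the same pair gave r = 0.36 and rho = 0.30 and did not pass (adjusted p = 0.219 and 0.315). A difference between the genotypes in these relations was not tested.

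**Figure D2:**
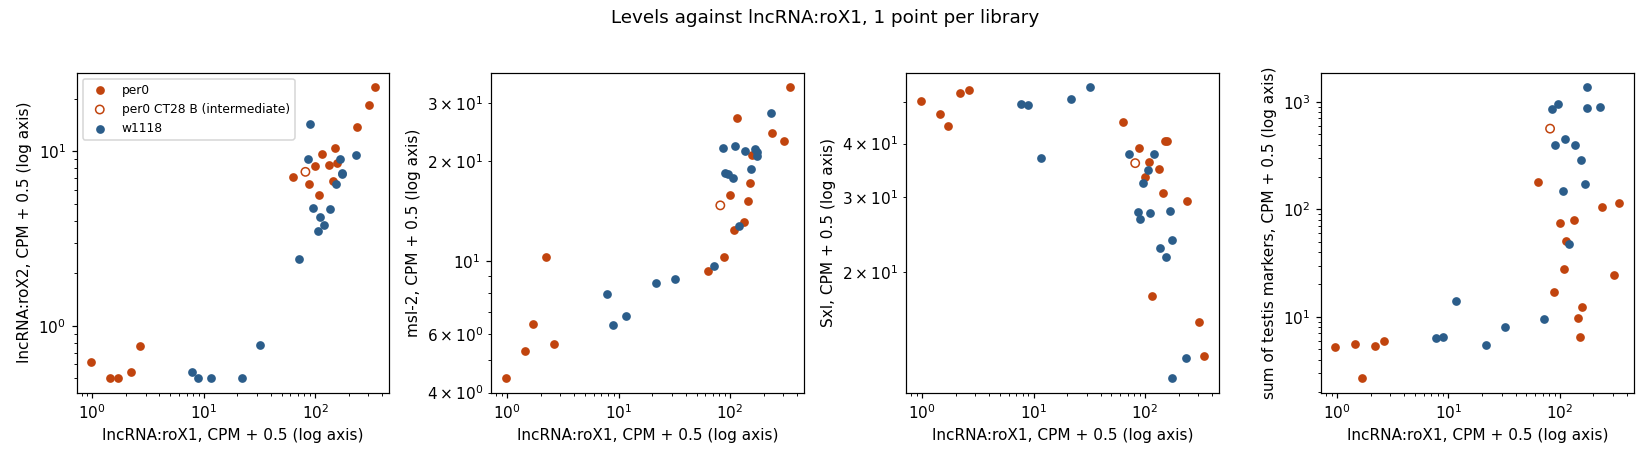
Level of roX2, msl-2, Sxl and the sum of 23 testis markers against roX1, all in CPM + 0.5 on log axes, with 1 point per library, for per0 (red; open circle, the intermediate library) and w1118 (blue). In each genotype the 5 libraries at the left, lowest in roX1, held at most 0.279 CPM of roX2, at least 36.5 CPM of Sxl and at most 13.6 CPM of the testis markers.

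Testis markers were scarce in the libraries lowest in roX1. Their sum was 2.18 to 5.41 CPM in the 5 per0 libraries lowest in roX1 and 4.98 to 13.6 CPM in the 5 w1118 libraries lowest in roX1, against 5.92 to 562 CPM and 9.12 to 1367 CPM in the other 13 of each, so libraries higher in roX1 could also be low in testis markers. The part of testis RNA, or of the numbers of male and female larvae in a pool, in the levels of the 9 genes was not tested.

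Across 8137 genes of at least 1 CPM on average in each genotype, likeness to roX1 was taken as the mean of Spearman's rho within the 18 per0 and within the 18 w1118 libraries, a description only. By this measure msl-2 was the gene most like roX1 (mean rho 0.85) and roX2 the next (0.83), while Sxl ranked last of all 8137 (-0.81). Of genes outside the 9, NetA, which encodes the axon guidance cue Netrin-A, was the most like roX1 (0.82), followed by CG9416 (0.74), CG33941 (0.73), CG4988 (0.72) and CG8072 (0.71). Among the 9, tra ranked 8111, Yp3 8078 and dsx 8061. These ranks use all 18 per0 libraries, and so include the gap between the 2 roX1 clusters. With the 13 upper per0 libraries in their place, msl-2 (0.79) and roX2 (0.77) kept ranks 1 and 2, Sxl stood at 8135 (-0.69) and NetA at 4 (0.68), while CG4988 stood at rank 89 and CG8072 at rank 299.

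Of the 9 genes, 6 lie on the X chromosome in the RefSeq annotation of Release 6, namely the 3 yolk protein genes, roX1, roX2 and Sxl, while msl-2 lies on 2L, tra on 3L and dsx on 3R. The male complex acts on X-linked genes, and their summed state was therefore set beside the 9 genes. For 1327 X-linked and 6695 autosomal genes other than the 9, the median deviation from the genotype mean was taken in each library on the log2(CPM + 0.5) scale. The X-linked minus the autosomal median ran from -0.11 to 0.09 in per0 (SD 0.057, n = 18) and from -0.15 to 0.14 in w1118 (SD 0.083, n = 18). It was 0.03 to 0.09 in the 5 per0 libraries lowest in roX1 and 0.08 to 0.14 in the 5 such w1118 libraries, all above 0. In the other 13 libraries it ran from -0.11 to 0.05 in per0 and from -0.15 to 0.05 in w1118, so some libraries higher in roX1 also lay above 0, and in per0 the ranges overlapped.

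This difference was positively related to Sxl, with r = 0.79 and rho = 0.83 in per0 and r = 0.89 and rho = 0.89 in w1118 (n = 18 each, permutation test, adjusted p = 0.00091 and 0.00125 in per0 and 0.00039 and 0.00078 in w1118). With msl-2 it gave r = -0.72 in per0 and r = -0.78 in w1118 (permutation test, adjusted p = 0.00541 and 0.00175). With roX1 it gave r = -0.71 and rho = -0.75 in w1118 (n = 18, permutation test, adjusted p = 0.00541 and 0.00296) and r = -0.19 and rho = -0.05 over the 13 upper per0 libraries (adjusted p = 0.603 and 0.945). Testis markers were scarce in the 5 libraries of each genotype lowest in roX1, and their part in this difference was not tested.

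**Figure D3:**
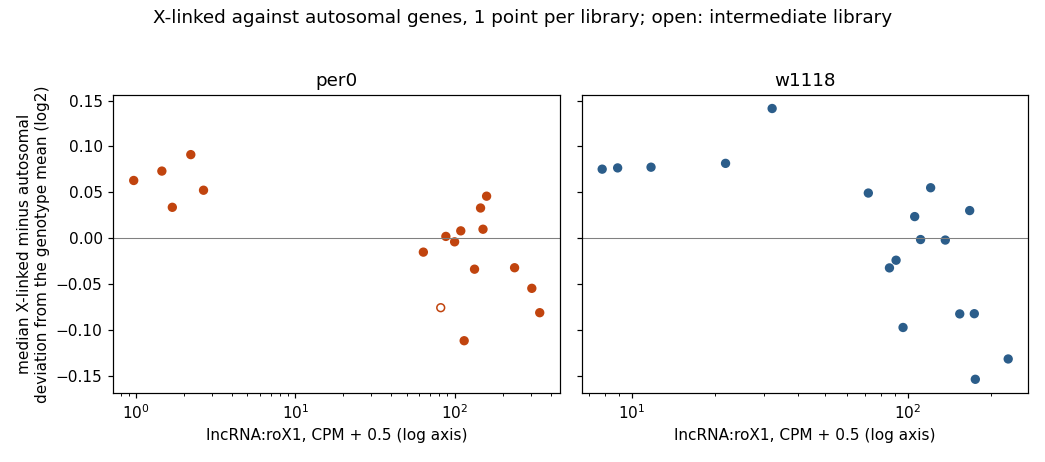
Median deviation of X-linked minus that of autosomal genes (log2) in each library against its roX1 level (CPM + 0.5, log axis), per0 at left and w1118 at right; the open circle is the intermediate library. In both panels the 5 libraries lowest in roX1 lie above 0, at 0.03 to 0.09 in per0 and 0.08 to 0.14 in w1118, and the other 13 lie on both sides of 0.

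Libraries of the same genotype and time differed widely in most of these genes. The median difference between duplicates, in absolute log2(CPM + 0.5) over 18 pairs, was 1.46 for roX2, 1.11 for Yp3, 0.99 for roX1, 0.92 for Yp2, 0.72 for msl-2 and 0.50 for Sxl, against a median of 0.318 over 12020 genes. roX2 stood at percentile 98.1, Yp3 at 95.8 and roX1 at 94.3 of those genes. On this scale dsx had the smallest median difference of the 9, 0.24, at percentile 32.2. Yp1, at 0.40, and tra, at 0.33, lay near the middle, and both are scarce RNAs whose differences the added 0.5 CPM damps. With 5 CPM added instead, dsx (0.168, percentile 49.6) lay above Yp1 (0.068), tra (0.124) and Yp2 (0.160), Yp2 stood at percentile 46.6, and roX2, Yp3 and roX1 at 97.5 to 98.7.

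For each pair of genes it was counted how often their duplicate differences had the same direction, a description with no test. roX1 and roX2 moved the same way in 9 of 9 pairs of per0 and 5 of 9 pairs of w1118, and roX1 and msl-2 in 9 of 9 and 6 of 9. roX1 and Sxl moved opposite ways in 8 of 9 pairs of per0 and 7 of 9 pairs of w1118. Yp2 and Yp3 moved the same way in 7 of 9 pairs of per0 and 8 of 9 pairs of w1118.

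**Figure D4:**
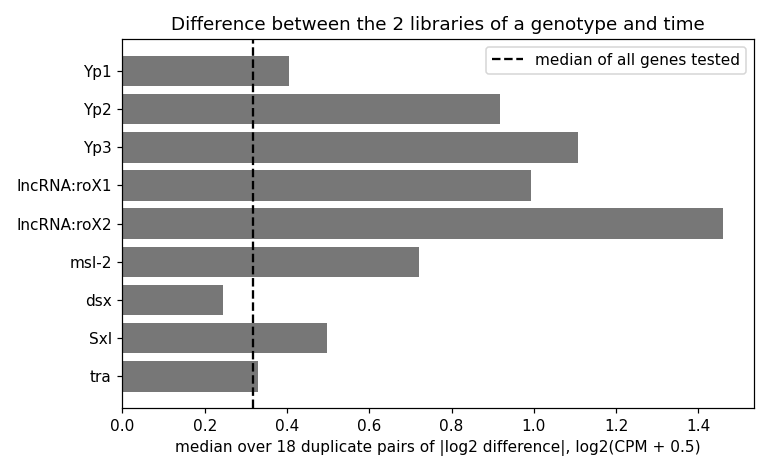
Median over 18 duplicate pairs of the absolute difference in log2(CPM + 0.5) between the 2 libraries of a genotype and time, 1 bar per gene; the dashed line is the median of all genes tested, 0.318. roX2 (1.46), Yp3 (1.11) and roX1 (0.99) have the longest bars and dsx (0.24) lies under the line.

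The first comparison set per0 against w1118, with time as a factor, to ask whether the level of these genes differed between them. Loss of period, other differences between the strains and larval age cannot be told apart in it. None of the 9 passed the test (edgeR's quasi-likelihood F test with Benjamini-Hochberg adjustment over 12020 genes, called at an adjusted p under 0.05), where 42.4% of all genes tested were called, 19.4% higher and 23.0% lower in per0. No member passed at an unadjusted p under 0.05, and DESeq2 and limma voom also called 0 of the 9. The largest differences were those of Yp1, at -1.22 ± 0.80 log2 (SE, adjusted p = 0.207), and Yp3, at 0.72 ± 0.64 log2 (adjusted p = 0.358). For dsx, Sxl and tra the differences were -0.17 ± 0.18, 0.18 ± 0.21 and -0.29 ± 0.20 log2, with adjusted p of 0.437, 0.480 and 0.223.

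roX1 differed by -0.01 ± 0.77 log2 (adjusted p = 0.991), roX2 by 0.67 ± 0.97 (adjusted p = 0.580), msl-2 by -0.12 ± 0.29 (adjusted p = 0.749) and Yp2 by -0.03 ± 0.99 (adjusted p = 0.984). The standard errors of roX1, roX2 and the 3 yolk protein genes were 0.64 to 0.99 log2, and a difference had to be well above its standard error to pass. That of Yp1, at -1.22 ± 0.80 log2, did not (edgeR, adjusted p = 0.207). Genotype differences above 1 log2 in these genes, and well above it for roX2 and Yp2, could therefore go undetected against the spread of these libraries. With the roX1 level of each library as a covariate, added after the data had been seen, roX2 was 1.24 log2 higher in per0 and passed (edgeR, adjusted p = 0.0324).

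Partner lists are read here against the 19.4% of all genes called higher and 23.0% called lower. DESeq2 called more, 2466 of 12020 genes higher and 4314 lower, and its counts below are read against those. Among 6 partner genes of the male complex, 2 were lower in per0 and none higher: the kinase gene JIL-1, by -0.30 ± 0.07 log2 (adjusted p = 0.000824), and the helicase gene mle, by -0.29 ± 0.10 log2 (adjusted p = 0.0246). The list's median was -0.25 log2, against -0.16 over all genes, and DESeq2 called 4 of the 6 lower. Of 16 tested partners in sex determination, 6 were lower and none higher (median -0.18 log2). Those with the smallest p were the corepressor gro (-0.43 log2), the zinc finger gene her (-0.42), the translation regulator Unr (-0.71) and the splicing factor tra2 (-0.29). Of 8 tested regulators of yolk protein genes, Met, a juvenile hormone receptor, was higher (0.23 ± 0.07 log2, adjusted p = 0.00712) and EcR, the ecdysone receptor, lower (-0.41 ± 0.14, adjusted p = 0.0160). With library size alone, Met was not called (0.17 log2, edgeR, adjusted p = 0.138). Of 22 tested testis markers, 3 were lower (fzo, bol and twe) and none higher. DESeq2 called 11 of those 22 lower. Markers of other cell types differed as well: 5 of 7 fat body markers were lower in per0 (median -1.30 log2), and 4 of 7 hemocyte (blood cell) markers were higher and 1 lower (median 0.79 log2). Of 11 germline and ovary markers, 2 were lower and none higher, and DESeq2 called 6 lower. Of 7 salivary gland markers none was called (1 passed at an unadjusted p under 0.05), and DESeq2 called 5 lower. The part of these cell types in the differences of the partner genes was not tested.

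The next comparisons asked whether the 9 genes varied over time. In per0, any difference between the 9 times was called for 1 of the 9, dsx (range of fitted time means 2.16 log2, adjusted p = 0.00970), where 9.71% of genes were called. In w1118 none of the 9 was called, where 12.2% of genes were, with msl-2 passing at an unadjusted p under 0.05 (adjusted p = 0.144). A genotype by time interaction was called for none of the 9, where 0.374% of genes were called. Its smallest adjusted p among the 9 was that of dsx (0.0680), and 3 of the 9 passed at an unadjusted p under 0.05, namely Yp1, Yp3 and dsx. DESeq2 called 6 of the 9 in that test, where it called 29.7% of all genes. Of their partners, any time was called in per0 for 2 of 16 in sex determination (fru and sisA), 3 of 8 yolk protein regulators (EcR, srp and svp) and 0 of 6 in dosage compensation, and in w1118 for EcR alone.

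No rhythm was called among them. The rhythm model held no term for a change between the days, so such changes added to its unexplained spread and could hide a rhythm. Over 24 h, 0 of the 9 passed in per0 and in w1118, where 0% and 0.618% of genes were called, and none passed at an unadjusted p under 0.05 or with DESeq2. Over 12 h, 0 of the 9 passed in either genotype, where 0% and 0% of genes were called (26 genes in per0 without CT8 A and 3 without CT24 B, and up to 2 in w1118 with 1 library left out; DESeq2 called 321 in per0 and 257 in w1118, and 992 in w1118 had an unadjusted p under 0.05). Yp1 in per0 was the 1 member past an unadjusted p of 0.05 there, with a peak-to-trough difference of 6.47 ± 2.21 log2 (adjusted p = 0.460) on 125 counts in 18 libraries, and DESeq2 called none of the 9.

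The last comparison set the second day (CT24, CT28 and CT32) against the same clock phases of the first (CT0, CT4 and CT8), with 6 libraries each. In per0 the yolk protein genes Yp2 and Yp3 and the transcription factor gene dsx rose, 3 of 9 members higher and none lower, where 8.97% of genes were called higher and 7.64% lower, 16.6% in all. The members' median was 0.91 log2, against -0.11 over all genes. In w1118 none of the 9 was called, where 15.1% of genes were, 4.57% higher and 10.5% lower, with Yp3 and msl-2 passing at an unadjusted p under 0.05 and DESeq2 calling 1, Yp3. The balance of calls depended on scaling. With library size alone in place of TMM (trimmed mean of M values), 286 genes were higher and 2976 lower in per0, against 946 and 806 with TMM, and the median of all genes became -0.63 log2. Yp2, Yp3 and dsx were still called higher in per0 there, dsx by 1.09 log2 (edgeR, adjusted p = 0.00269). In w1118, 320 genes were higher and 1881 lower with library size alone and 1210 higher and 1540 lower with DESeq2, against 521 and 1194 with TMM.

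dsx encodes the transcription factor at the end of the sex pathway, which acts on the yolk protein enhancers. On the second day in per0 its lowest, median and highest values were 10.9, 15.6 and 18.1 CPM, against 4.05, 4.84 and 8.58 CPM on the first day. The 2 groups of per0 libraries did not overlap, and the difference was 1.62 ± 0.21 log2 (edgeR, adjusted p = 0.00163). In w1118 the values were 8.25, 11.9 and 19.7 CPM on the second day and 9.45, 11.8 and 17.2 CPM on the first. Those groups overlapped throughout (-0.04 ± 0.23 log2, adjusted p = 0.911). dsx in per0 totalled 1800 counts over the second-day and 805 over the first-day libraries, which scaled by TMM library size is a ratio of 2.65 with an exact 95% counting interval of 2.44 to 2.89.

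Yp3, the yolk protein gene expressed most in these larvae, had lowest, median and highest values of 39.4, 87.5 and 285 CPM on the second day in per0, against 3.03, 8.05 and 50.4 CPM on the first. Of the first-day libraries only CT8 A, at 50.4 CPM, reached the range of the second day. The difference was 3.29 ± 0.86 log2 (edgeR, adjusted p = 0.0281). The call was lost without any 1 of CT0 A, CT0 B, CT4 A, CT4 B and CT28 A (adjusted p = 0.0544 to 0.0902), while the difference stayed at 2.83 to 4.10 log2 over all 12 omissions. It was also lost with the roX1 covariate (3.12 log2, adjusted p = 0.0999).

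In w1118, Yp3 had lowest, median and highest values of 5.89, 20.2 and 62.4 CPM on the second day, against 31.9, 65.5 and 104 CPM on the first. The groups overlapped, and at -1.67 ± 0.51 log2 the difference missed the threshold (adjusted p = 0.0555). It passed with DESeq2 (adjusted p = 0.00494), with library size alone (-1.84 log2, edgeR, adjusted p = 0.0259), and without CT4 B (-1.96 log2, adjusted p = 0.0280) or CT28 A (-1.90 log2, adjusted p = 0.0367), while over all 12 omissions it ran from -1.96 to -1.32 log2. With the column letter as a replicate block, added after the data had been seen, it also passed (-1.63 log2, edgeR, adjusted p = 0.0292). By time, Yp3 in per0 averaged 4.24 ± 1.09 CPM at CT0, 19.5 ± 11.9 at CT4, 26.7 ± 33.5 at CT8, 95.7 ± 42.1 at CT12, 41.9 ± 10.8 at CT16, 67.9 ± 63.9 at CT20, 102 ± 82.1 at CT24, 162 ± 174 at CT28 and 87.5 ± 7.67 at CT32 (SD, n = 2 each). The per0 mean at CT12 was already above those at CT0, CT4 and CT8, and duplicates scattered widely at CT20, CT24 and CT28.

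Yp2, the neighbour of Yp1 on the X, was scarce. Its lowest, median and highest values in per0 were 0, 2.11 and 7.95 CPM on the second day, against 0, 0 and 0.0903 CPM on the first, and 4 of the 6 first-day libraries held none. It had 444 counts in the second-day libraries together and 3 in the first-day libraries, which scaled by TMM library size is a ratio of 176 with an exact 95% counting interval of 59.7 to 855. The fitted difference of 7.51 ± 1.50 log2 (edgeR, adjusted p = 0.00984) rests on those 3 first-day counts, so its size is uncertain. In w1118, Yp2 had lowest, median and highest values of 0.0503, 0.780 and 2.79 CPM on the second day and 0.0393, 0.654 and 2.32 CPM on the first, and those groups overlapped (0.45 ± 0.90 log2, adjusted p = 0.731).

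Yp1 had 69 counts on the second day and 9 on the first in per0, which scaled by TMM library size is a ratio of 9.10 with an exact 95% counting interval of 4.53 to 20.7. Of those 9 first-day counts, 8 came from CT4 A and 1 from CT0 A. The difference, 3.97 ± 1.50 log2, did not pass (adjusted p = 0.102), and it passed without CT4 A (6.53 log2, adjusted p = 0.0242) and without the intermediate library (4.49 log2, adjusted p = 0.0451). It ran from 3.25 to 6.53 log2 over the 12 omissions of a library. It also passed with DESeq2 (3.60 log2, adjusted p = 0.0431) and limma voom (3.34 log2, adjusted p = 0.0348). In w1118, Yp1 differed by -0.996 ± 0.919 log2 (adjusted p = 0.447). Yp1 shares 875 bp of exon with asRNA:CR45601 on the opposite strand in the Ensembl annotation.

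The remaining members did not pass in per0: Sxl differed by 0.91 ± 0.34 log2 (adjusted p = 0.0990), tra by 0.81 ± 0.46 (adjusted p = 0.267), msl-2 by -0.73 ± 0.47 (adjusted p = 0.339), roX1 by -1.35 ± 1.27 (adjusted p = 0.532) and roX2 by -1.45 ± 1.10 (adjusted p = 0.427). In w1118 the differences were -0.40 for Sxl, 0.07 for tra, 0.68 for msl-2, 0.59 for roX1 and 0.57 for roX2, with adjusted p from 0.151 to 0.892.

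**Figure D5:**
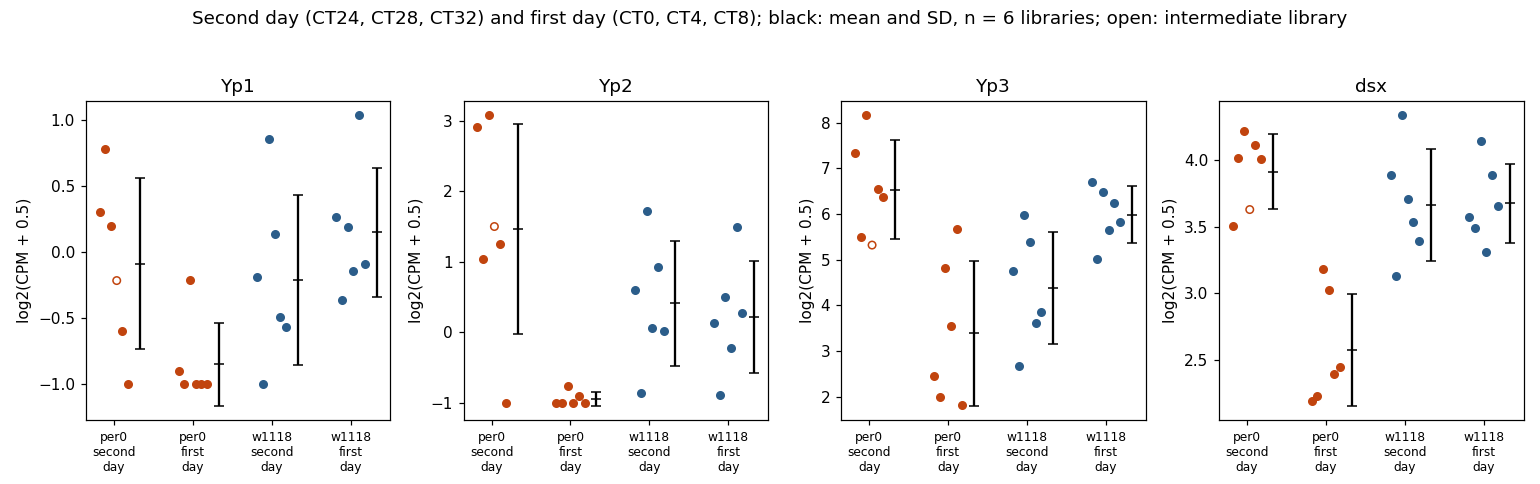
log2(CPM + 0.5) of Yp1, Yp2, Yp3 and dsx in each library of the second day and the first day, per0 (red; open circle, the intermediate library) left of w1118 (blue), with the mean and SD of 6 libraries in black. dsx in per0 does not overlap between the days, while in w1118 each of the 4 genes overlaps.

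A test of whether the second-day change differed between the genotypes, added after the data had been seen, called Yp3 and dsx. The change in per0 minus that in w1118 was 4.74 ± 1.01 log2 for Yp3 (edgeR, adjusted p = 0.0407) and 1.45 ± 0.29 log2 for dsx (adjusted p = 0.0267). So 2 of 9 members were called higher, where 0.423% of genes were called higher, 0.0762% lower and 0.499% in all. First-day dsx was lower in per0, at 4.05 to 8.58 CPM, than in w1118, at 9.45 to 17.2 CPM. On the second day its ranges overlapped, at 10.9 to 18.1 and 8.25 to 19.7 CPM. For Yp3 the w1118 change was negative, at -1.67 log2, and not called. Genotypes were not tested within a day. Yp2, at 6.84 ± 1.75 log2, and Yp1, at 4.66 ± 1.69 log2, did not pass (adjusted p = 0.102 and 0.300). Yp2 passed with DESeq2 (6.87 log2, adjusted p = 0.00118), with a filter of 1 CPM (7.06 log2, edgeR, adjusted p = 0.0492) and with the column letter A or B as a replicate block, added after the data had been seen (7.24 log2, edgeR, adjusted p = 0.0171). Fat body markers moved the same way: 2 of 7 were called higher in per0 by the same test and 6 of 7 passed at an unadjusted p under 0.05. DESeq2 called 6 of them, where it called 4.63% of all genes. The median of these markers was 2.99 log2, against -0.28 over all genes. Their part in the differences of Yp3 and dsx was not tested. The calls were close to the threshold: with 1 library left out, Yp3 was called in 5 of 24 fits and dsx in 11 of 24, at 4.24 to 5.74 and 1.34 to 1.64 log2. With the roX1 covariate neither was called (4.24 log2, adjusted p = 0.234, and 1.11 log2, adjusted p = 0.247), nor with no filter on low counts (adjusted p = 0.0530 and 0.0525).

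Regulators of yolk protein genes were compared over the same days. In per0, 6 of 8 tested were higher on the second day and none lower, where 8.97% of all genes were higher and 7.64% lower, with a list median of 0.68 log2: EcR by 1.92 ± 0.25 log2 (adjusted p = 0.00169), the GATA factor srp by 0.82 ± 0.16 (adjusted p = 0.00910), usp, the partner of EcR, by 0.48 ± 0.11 (adjusted p = 0.0144) and the nuclear receptor svp by 0.66 ± 0.18 (adjusted p = 0.0328) had the smallest p. These calls depended on scaling, except that of EcR. With library size alone, 1 of the 8 was higher, EcR (1.41 log2, edgeR, adjusted p = 0.00384), and 1 lower, Met (-0.80 log2, adjusted p = 0.00679), while srp differed by 0.30, svp by 0.13 and usp by -0.04 log2, and the list median was 0.16 log2. In w1118, 1 of the 8 was higher, EcR, by 1.21 ± 0.19 log2 (adjusted p = 0.00247). Of 16 tested sex determination partners, 2 were higher in per0, vir, a splicing cofactor of Sxl (0.36 log2, adjusted p = 0.0274), and sisA, an early activator of Sxl (1.67 log2, adjusted p = 0.0390), and none in w1118, where DESeq2 called 2 higher and 4 passed at an unadjusted p under 0.05. A count of 2 in 16 is near the share of all genes. Of the 6 dosage compensation partners, none was called in per0, and JIL-1 was higher in w1118 (0.31 log2, adjusted p = 0.0288). With library size alone, vir, sisA and JIL-1 were not called: vir in per0 was at -0.16 log2 (edgeR, adjusted p = 0.477), sisA in per0 at 1.13 log2 (adjusted p = 0.108) and JIL-1 in w1118 at 0.11 log2 (adjusted p = 0.434). In that scaling 1 of 16 sex determination partners and 1 of 6 dosage compensation partners were lower in per0, and 2 of 16 sex determination partners and 1 of 8 yolk protein regulators were lower in w1118.

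Markers of other cell types were compared over the same days. Over all genes DESeq2 called 1363 of 10552 higher and 1608 lower in per0, and 1210 of 11394 higher and 1540 lower in w1118. All 7 fat body markers were higher on the second day in per0, with a median of 8.23 log2, and 5 of 7 in w1118, with a median of 2.87 log2. Of the salivary gland markers, 0 of 5 tested were called in per0, where 4 passed at an unadjusted p under 0.05 and DESeq2 called 3 higher, and 4 of 7 were higher in w1118. On the second day in per0 their sum was 13398 CPM in the intermediate library and at most 10.5 CPM in the others. With library size alone the fat body markers had 6 of 7 called higher in per0. Of 7 hemocyte markers, none was called in per0 (median -0.54 log2; 1 passed at an unadjusted p under 0.05, DESeq2 called 0, and library size alone called 2 lower), and 4 were lower in w1118 (median -1.02 log2). Of 7 midgut markers, 1 was lower in per0 (median -6.05 log2), where DESeq2 called 5, and none was called in w1118 (median -1.45 log2), where DESeq2 called 1. Of 8 muscle markers, none was called in per0 (median -1.33 log2), where 4 passed at an unadjusted p under 0.05, DESeq2 called 4 lower and library size alone 5 lower, and none in w1118 (median -0.78 log2; none at an unadjusted p under 0.05 and 0 with DESeq2). The testis markers had lowest, median and highest sums of 4.79, 7.31 and 562 CPM on the second day in per0, the highest being the intermediate library and the next 11.9 CPM, against 16.6, 38.9 and 114.5 CPM on the first. In w1118 these sums were 7.50, 423 and 1367 CPM on the second day and 4.98, 30.4 and 397 CPM on the first. None of 20 tested testis markers was called in per0 (median -2.22 log2) and none of 21 in w1118 (median 2.34 log2), with 0 at an unadjusted p under 0.05 in either, while DESeq2 called 5 lower in per0 and 1 higher in w1118. The parts of fat body marker RNA, testis RNA and roX1 level in the changes of Yp2, Yp3 and dsx were not tested beyond the roX1 covariate given above.

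Across all 18 libraries of each genotype several pairs among the yolk protein genes and dsx were positively related. In per0, Yp2, Yp3 and dsx were all called higher on the second day, so their relations there partly restate that shared change. Between duplicates, Yp3 and dsx moved the same way in 6 of 9 pairs of per0 and 7 of 9 pairs of w1118. Yp3 and dsx gave r = 0.81 and rho = 0.69 in per0 and r = 0.74 and rho = 0.67 in w1118 (permutation test, adjusted p = 0.00091 and 0.00886 in per0 and 0.00299 and 0.0113 in w1118), and r was 0.71 and 0.54 without the 2 farthest libraries. Yp1 and Yp2 gave r = 0.73 and rho = 0.80 in per0 and r = 0.79 and rho = 0.70 in w1118 (adjusted p = 0.00596 and 0.00134 in per0 and 0.00134 and 0.00886 in w1118). Yp1 and Yp3 passed in w1118 (r = 0.64 and rho = 0.74, adjusted p = 0.0139 and 0.00444) and not in per0 (r = 0.50 and rho = 0.46, adjusted p = 0.0684 and 0.106). Yp2 and Yp3 passed in per0 (r = 0.64 and rho = 0.58, adjusted p = 0.0143 and 0.0383) and not in w1118 (r = 0.50 and rho = 0.55, adjusted p = 0.0684 and 0.0517). Yp2 and dsx passed in both genotypes (r = 0.60 in per0 and 0.67 in w1118, adjusted p = 0.0215 and 0.0101). Yp1 and dsx passed in per0 (r = 0.56 and rho = 0.57, adjusted p = 0.0333 and 0.0419) and in w1118 by r alone (r = 0.56 and rho = 0.51, adjusted p = 0.0348 and 0.0777). Without the 2 farthest libraries, r in per0 and w1118 was 0.83 and 0.54 for Yp1 and Yp2 and 0.54 and 0.64 for Yp1 and Yp3. It was 0.46 and 0.41 for Yp2 and Yp3, 0.64 and 0.54 for Yp2 and dsx, and 0.51 and 0.39 for Yp1 and dsx. Yp3 and msl-2 ran opposite ways in w1118 (r = -0.68 and rho = -0.73, adjusted p = 0.00874 and 0.00518) and gave r = -0.59 and rho = -0.51 in per0 (adjusted p = 0.0258 and 0.0777). The genes most like Yp1 over 8138 genes, by mean rho within the genotypes, were Sec61beta (0.78), Sec61alpha (0.77), SsRbeta (0.77), kud (0.77) and Dad1 (0.76), the first 2 being subunits of the channel that passes secreted proteins into the endoplasmic reticulum. Yp3 ranked 124 and dsx 251 on that scale. Yp1 held at most 3 counts in 10 of 18 per0 libraries, 7 of them with none, so many of its per0 ranks are ties and this order is uncertain.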

How the data were processed

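Gene counts from 36 fat body libraries were used as deposited; the submitters' processing notes name STAR 2.7.9a, DESeq2 1.30.1, featureCounts and edgeR without saying what each did, and the genome build is not given in the sources used here. Per the labels' protocols, libraries were made with SMART-Seq v4 from pools of 5 larvae, which keeps neither strand nor molecular identifiers, so intervals and floors cover counting error only. The titles call the duplicates biological replicates but do not say whether they came from separate cultures, so p-values measure the spread between these pools. For 1 sample of w1118 at CT0 the genotype tag reads per0 while the title reads w1118, and the title was followed.

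Counts were tested with edgeR 4.0.16 in R 4.3.3 (trimmed mean of M values, filterByExpr by group, quasi-likelihood F test, Benjamini-Hochberg adjustment over all genes tested). DESeq2 1.42.0 and limma 3.58.1 voom were alternatives, beside scaling, filters, left-out libraries and the intermediate library per0 CT28 B. CPM values were scaled over all 36 libraries. Rhythms were fitted with sine and cosine terms, 24 h and 12 h periods in 1 model. Scripts were tested on simulated data. The 9 members and the 10 other lists (107 genes without the members, 106 matched) were chosen with earlier results of these data known. All 9 members were named in every comparison, with up to 4 called genes per other list and the 5 genes most like roX1 and Yp1. RefSeq symbols matched 17550 of 17610 genes.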

Additional observations from a re-analysis of the deposited data

Results flagged for a closer look

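The second-day change differed between per0 and w1118 for Yp3, by 4.74 ± 1.01 log2 (n = 24 libraries, edgeR's quasi-likelihood test, adjusted p = 0.0407). Its ratio of summed counts of second to first day, scaled by TMM library size, was 6.39 in per0 and 0.419 in w1118. Such ratios weigh libraries with many counts most and hold no term for clock phase, so they give a smaller difference than the fit. The change also differed for dsx, by 1.45 ± 0.29 log2 (adjusted p = 0.0267), with scaled ratios of 2.65 in per0 and 1.04 in w1118. First-day dsx was lower in per0, at 4.05 to 8.58 CPM, than in w1118, at 9.45 to 17.2 CPM. The results for Yp3 and dsx were found by a test of the difference that was added after the data had been seen. With 1 library left out, the call was lost in 19 of 24 fits for Yp3 and in 13 of 24 for dsx, and both were lost with the roX1 covariate and with no filter on low counts, and Yp3 also with library size alone. Fat body markers differed the same way, with a median of 2.99 log2 and 2 of 7 called, and their part was not tested.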

How the results depend on the processing

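Count columns are lettered A or B, and nothing matches those letters with the labelled replicates 1 and 2. As a check of pairing, A-minus-B differences over 12020 genes were correlated between times: r ran from -0.22 to 0.49 in per0 (median 0.10) and from -0.63 to 0.69 in w1118 (median 0.03), so the letters were not taken to pair libraries. Midgut markers in per0 were nonetheless higher in B at 9 of 9 times, sex determination partners in B at 8, and fat body and hemocyte markers and Yp3 in A at 8, and in w1118 Yp1 was higher in A at 9 of 9. With the letter as a replicate block within genotypes, 1 member was called for the second day in w1118, against 0 (Yp3, -1.63 log2, adjusted p = 0.0292), Yp2 joined Yp3 and dsx for the difference of the changes (7.24 log2, adjusted p = 0.0171), no other member's call changed, and no count over all genes moved by more than 1.5 times.

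Counts of called members moved in these cases. For per0 against w1118, the roX1 covariate called 1 (roX2), against 0. For genotype by time, DESeq2 called 6, no filter 1 and a filter of 1 CPM 1, against 0. For any time, DESeq2 called 3 in per0, against 1, and 3 in w1118, against 0. For the second day, DESeq2 called 5 in per0, voom 4, the fit without the intermediate library 4 and the roX1 covariate 2, against 3, and DESeq2 and unscaled library size each called 1 in w1118, against 0. For the difference of the second-day changes, DESeq2 called 4, the 1 CPM filter 3, library size alone 1, no filter 0 and the roX1 covariate 0, against 2. Leaving out 1 library gave 0 to 1 called members for genotype by time, 2 to 4 for the second day in per0, 0 to 2 in w1118 and 0 to 3 for the difference, and the count stayed as given for per0 against w1118, any time and both rhythms.

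Some differences that had not passed the test changed sign. Between per0 and w1118, Yp2 (-0.03 log2) became 0.29 with voom, 0.051 with no filter, 0.076 with the 1 CPM filter, 0.016 without the intermediate library and 0.52 without both w1118 CT0 libraries, roX1 (-0.01) became 0.030 with no filter and 0.11 with the 1 CPM filter, and msl-2 (-0.12) became 0.066 with the roX1 covariate. Leaving out 1 library gave -0.59 to 0.39 for Yp2, -0.21 to 0.26 for roX1 and -0.19 to 0.078 for msl-2. For the second day in per0, the roX1 covariate gave 0.26 for roX2, against -1.45, and 0.19 for msl-2, against -0.73. In w1118, dsx (-0.04) became 0.0011 with DESeq2, 0.0010 with voom and 0.10 with the covariate, and tra (0.07) became -0.14 without scaling. There, leaving out 1 library gave -0.18 to 0.92 for Yp2, -0.019 to 2.13 for roX2, -0.20 to 0.065 for dsx and -0.21 to 0.16 for tra. For the difference of the changes, the covariate gave 0.17 for roX2, against -2.16, and -0.065 for tra, against 0.58. None of these values passed the test, and the causes were not tested.

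Counts over all genes moved by more than 1.5 times with DESeq2 for genotype by time (3568, against 45), any time in per0 (4096, against 1061) and w1118 (5473, against 1426), the second day in per0 (2971, against 1752) and w1118 (2750, against 1715), 24 h rhythms in per0 (91, against 0) and w1118 (410, against 72), 12 h rhythms in per0 (321, against 0) and w1118 (257, against 0) and the difference of the changes (547, against 59). Without scaling they were 157 for genotype by time, 2585 and 2353 for any time in per0 and w1118 and 3262 for the second day in per0. Genotype by time called 190 with no filter and 238 with the 1 CPM filter, any time 699 with voom in per0 and 892 with the roX1 covariate in w1118, and 24 h rhythms 134 with the 1 CPM filter in w1118. 12 h rhythms gave 1 without the intermediate library in per0 and 2 with the 1 CPM filter in w1118. The difference of the changes gave 191 with the 1 CPM filter, 186 without the intermediate library and 31 with the covariate. Of the 59 genes it called, 50 were higher, against 327 of 547 with DESeq2, and its median over all genes was -0.41 log2 without scaling, against -0.28. Leaving out 1 library gave 6 to 349 genes for genotype by time, 396 to 1588 and 841 to 2089 for any time in per0 and w1118, 1103 to 2615 and 949 to 1766 for the second day, 11 to 96 for 24 h rhythms in w1118, 0 to 26 and 0 to 2 for 12 h rhythms in per0 and w1118 and 28 to 186 for the difference. roX1 was not tested with its own level as covariate. The call of dsx for any time in per0 held in 18 of 18 omissions of a library, and those of Yp2 and dsx for the second day in per0 in 12 of 12. Yp1 and Yp2, with 125 and 522 counts in all per0 libraries, are limited by depth.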

Other observations

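Likeness, the mean Spearman's rho within the 18 per0 and 18 w1118 libraries, was also computed for Yp3 and dsx, chosen after their values had been seen. dsx ranked 32 by likeness to Yp3, while Yp3 ranked 15 and Sxl 23 by likeness to dsx.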
